A study of Mus musculus with 4 samples.

Results

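10 genes of autophagy and mitophagy, chosen by symbol, were followed in the soleus of dystrophic mice, and 9 of them are described one by one: Ulk1, Becn1, Map1lc3a, Map1lc3b, Gabarapl1, Sqstm1, Bnip3, Ctsl and Tfeb. Counts and medians over 10 genes hold all of them. All 10 were listed by symbol among the 24054 genes of the count table, and all 10 passed the filter on low counts. Their expected counts ran from 202 to 24522 in a library, the highest being that of Sqstm1 in mCDC replicate 2. All mice, in both groups, were mdx females (a dystrophin mutation on the C57BL/10ScSn background) and were 8 weeks old when monthly femoral vein infusions began. 2 soleus muscles came from mice given mouse cardiosphere-derived cells at passage 5 (mCDCs, stromal cells grown from the heart of 1 healthy mouse of the parent strain) and 2 from mice given the same volume of vehicle (IMDM, a culture medium), each taken at the 12-month endpoint. The labels number the libraries but do not name the animals, so p-values measure only the spread between these samples, and no group of healthy mice was part of the comparison. The question here was whether transcripts of the autophagy machinery differed between the 2 groups.

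Autophagy encloses part of the cytoplasm in a double membrane, the autophagosome, which then fuses with a lysosome so that its content is degraded. Kinase and lipid kinase complexes start the membrane, proteins of the ATG8 family are attached to it, cargo receptors tie protein aggregates or organelles to the ATG8 proteins, and lysosomal proteases digest the content. Mitophagy is the form that removes mitochondria, marked either by a receptor in the outer membrane or by ubiquitin chains. In skeletal muscle the pathway is known for clearing damaged mitochondria and for protein loss in atrophy, and much of it is controlled after transcription, so a transcript level is not a measure of autophagic flux.

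Sequences of the 250 bases before the start were taken from the RefSeq promoter table for GRCm38.p6, the patch release of the build named mm10 in the submitters' processing notes. 7 of the 10 genes matched an entry, Tfeb with 3 starts, and 3 did not, among them Map1lc3a and Becn1. The windows shown belong to the 3 genes whose fitted difference between the groups was most positive, and capitals mark the E-box core CACGTG and the GC box GGGCGG (reverse strand CCGCCC).
Gabarapl1 (chr6:129532942-129533191, plus strand): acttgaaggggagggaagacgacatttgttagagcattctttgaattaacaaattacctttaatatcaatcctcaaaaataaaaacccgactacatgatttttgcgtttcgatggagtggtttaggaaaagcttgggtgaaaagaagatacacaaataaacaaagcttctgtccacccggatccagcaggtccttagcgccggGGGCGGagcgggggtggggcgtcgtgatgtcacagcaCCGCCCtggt
Sqstm1 (chr11:50210821-50211070, minus strand): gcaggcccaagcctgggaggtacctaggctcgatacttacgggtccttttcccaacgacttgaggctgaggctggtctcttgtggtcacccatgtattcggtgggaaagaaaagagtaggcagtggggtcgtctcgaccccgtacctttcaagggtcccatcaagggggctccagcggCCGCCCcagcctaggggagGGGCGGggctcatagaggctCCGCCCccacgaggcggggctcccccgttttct
Bnip3 (chr7:138909507-138909756, minus strand): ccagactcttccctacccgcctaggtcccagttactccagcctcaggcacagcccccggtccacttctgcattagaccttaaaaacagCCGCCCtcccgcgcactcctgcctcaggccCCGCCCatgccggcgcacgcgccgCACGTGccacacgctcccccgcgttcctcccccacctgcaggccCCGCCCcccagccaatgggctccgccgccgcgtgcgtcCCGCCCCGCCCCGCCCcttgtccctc
CACGTG is the core of the CLEAR element, which TFEB binds in lysosomal and autophagy genes. It was found in the windows of Bnip3, 108 to 103 bases before the start, and of Ctsl, where the window lies within the annotated gene. It was thus present for 2 of 7 genes, beside 6.02% of all 32851 promoter windows of the same length. The longer CLEAR consensus, CACGTG preceded by GT and followed by AC, was found for 0 of the 7 genes and in 0.24% of all windows, and the FoxO site GTAAACA (reverse TGTTTAC) for 0 of the 7 and in 3.17%. GC boxes were found for 6 of the 7 genes, all but Ctsl, and in 32.7% of all windows. The window of Bnip3 held 6 of them, some overlapping each other, that of Sqstm1 3 and that of Gabarapl1 2. Both strands were searched, and a match describes the letters only. A gene counted once if any of its windows matched, over 9 windows in all, whereas the percentages are shares of windows. The windows shown had 46.8% (Gabarapl1), 63.2% (Sqstm1) and 72.4% (Bnip3) GC, beside a median of 52.4% over all promoter windows.

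None of the 10 genes was called different between mCDC and vehicle muscles. Calls followed the thresholds of the study's methods, a change of more than 1.5-fold and p under 0.05 before adjustment, here in edgeR's quasi-likelihood test, and over all 13652 genes tested 4.0% were called, 1.26% higher and 2.74% lower. 1 of the 10, Gabarapl1, had an unadjusted p under 0.05, as did 6.94% of all genes, and the smallest Benjamini-Hochberg adjusted p among the 10 was 0.713. With DESeq2, with the legacy form of the quasi-likelihood test and with edgeR's likelihood ratio test, 0 of the 10 were called and 0 had an unadjusted p under 0.05. For 7 of the 10, beside 40.7% of all genes, the 95% interval of the fold change stayed inside 1.5-fold in both directions. For 3 of the 10 it reached past 1.5-fold on 1 side, among them Gabarapl1 and Sqstm1. In CPM (the expected count divided by the TMM-scaled library size and brought to a common total), the groups did not overlap for 6 of the 10 genes, 4 higher and 2 lower in mCDC muscles, beside 19.2% higher and 19.4% lower, 38.7% in all, of the genes tested. An exact permutation test on 1 gene has a smallest possible p of 0.333 with 2 libraries a group. A p that misses the threshold does not show that the groups were alike, so the interval of each ratio is given.

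**Figure D1:**
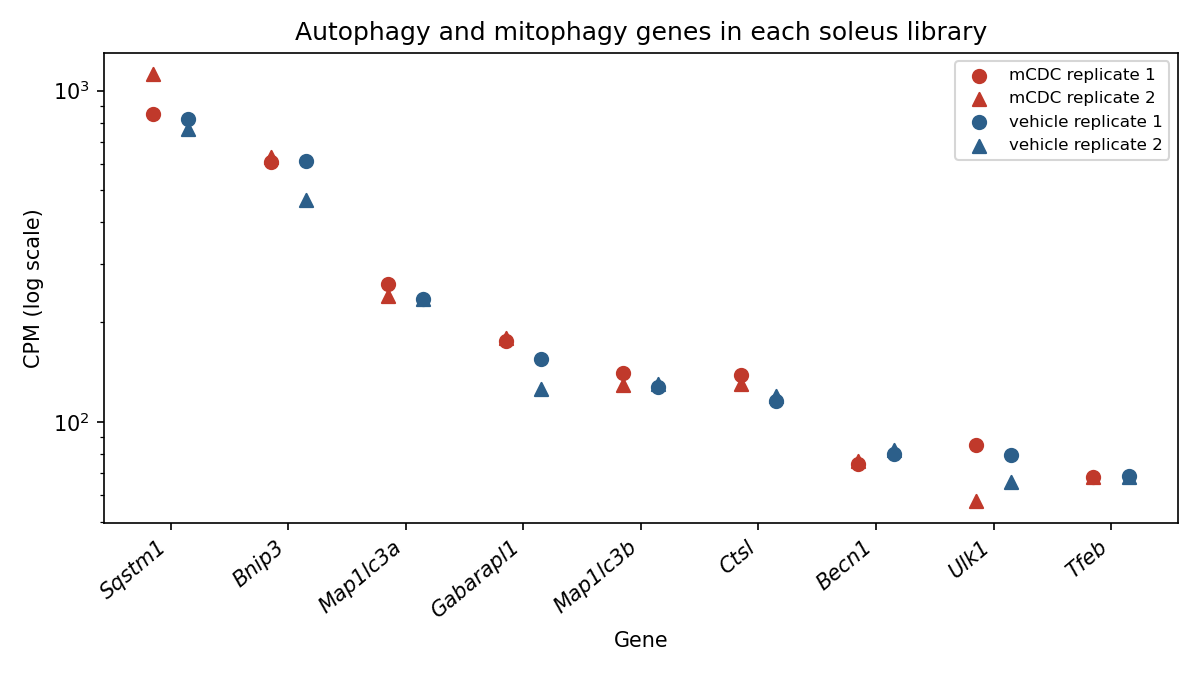
CPM on a log scale for each of the 9 genes in each library; red points are mCDC and blue points vehicle muscles, circles replicate 1 and triangles replicate 2. Levels span from 57.6 CPM (Ulk1) to 1120.2 CPM (Sqstm1), and Map1lc3b and Ctsl lie close together, as do Becn1, Ulk1 and Tfeb.

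Neither of the 2 genes that start the autophagosome was called. Ulk1 encodes the kinase that starts autophagosome formation when nutrients fall. Ulk1 (chr5:110784489-110810120, minus strand, GRCm38 as for the others) was at 85.1 CPM in mCDC replicate 1 and 57.6 CPM in mCDC replicate 2, and at 79.6 and 66.0 CPM in the vehicle replicates 1 and 2. The 2 mCDC libraries lay on either side of both vehicle libraries, so the spread within the mCDC group was larger than the distance between groups. The log2 ratio of mCDC to vehicle was -0.03 (standard error, SE, 0.20, edgeR adjusted p = 0.983), with a 95% interval of the ratio from 0.712-fold to 1.35-fold. Its sign followed the library left out, from -0.34 without mCDC replicate 1 to 0.23 without mCDC replicate 2, and it was 0.05 after a trend with GC and length of the transcripts had been taken out.

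Becn1 encodes beclin 1, the scaffold of the lipid kinase complex that acts after the ULK1 complex. Becn1 (chr11:101288258-101302286, minus strand) was at 74.6 and 76.3 CPM in the mCDC libraries and at 79.9 and 82.5 CPM in the vehicle libraries, replicate 1 first here and below. Both mCDC libraries were lower than both vehicle libraries, but the gap was small. Its log2 ratio was -0.11 (SE 0.13, adjusted p = 0.857), and the interval of the ratio ran from 0.759 to 1.14. Without the GC and length trend it was 0.02. Becn1 was the only one of the 10 whose expected counts were not whole, in all 4 libraries, as happens when RSEM divides reads between genes, and on the genome it overlaps Cntd1, on the opposite strand.

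The ATG8 proteins are small ubiquitin-like proteins that are attached to the autophagosome membrane and hold the cargo receptors. Map1lc3a (LC3A, chr2:155276364-155278073, plus strand) had 260.9 and 239.6 CPM in the mCDC libraries, against 234.5 CPM in each vehicle library. The mCDC libraries were both higher, and the 2 vehicle libraries were nearly equal. Their log2 ratio was 0.09 (SE 0.13, adjusted p = 0.87), an interval of the ratio from 0.869 to 1.31. Map1lc3b (LC3B, chr8:121590438-121598760, plus strand), the form most used to follow autophagosomes, had 140.8 and 129.6 CPM with mCDCs, against 127.6 and 130.3 CPM in the vehicle libraries. Here the groups overlapped, at a log2 ratio of 0.07 (SE 0.13, adjusted p = 0.911) with an interval of the ratio from 0.855 to 1.29. Zcchc14 overlaps Map1lc3b on the opposite strand, and reads of the 2 cannot be told apart if strand was not used. Gm20388 overlaps Map1lc3b on the same strand.

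Gabarapl1, a member of the GABARAP branch of the family, differed most among the 10 by p. Gabarapl1 (chr6:129533192-129542331, plus strand) reached 175.3 and 178.6 CPM in the mCDC libraries, against 154.4 and 126.0 CPM in the vehicle libraries. Both mCDC libraries were higher than both vehicle libraries, and the vehicle libraries differed more from each other than the mCDC libraries did. On the log2 scale the ratio was 0.34 (SE 0.14, unadjusted p = 0.0482, adjusted p = 0.713), which is 1.26-fold with an interval from 1.0 to 1.59, so it stayed under the 1.5-fold threshold. With vehicle replicate 2 left out it was 0.20, and with vehicle replicate 1 left out 0.49. The noncoding transcript 1700101I11Rik overlaps Gabarapl1 on the opposite strand.

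**Figure D2:**
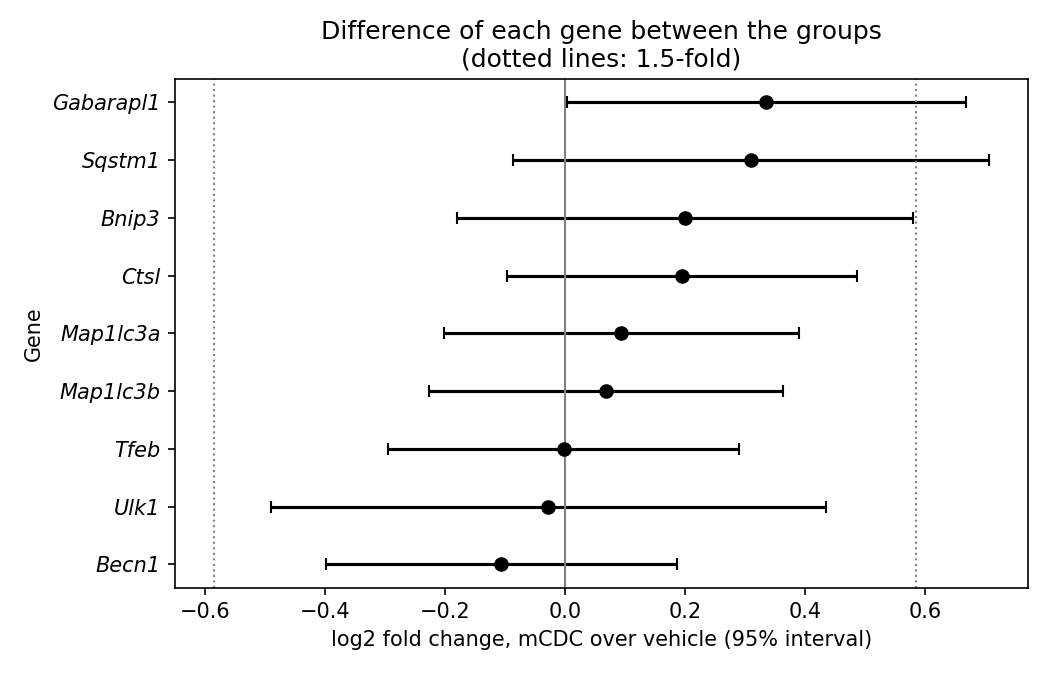
log2 ratio of mCDC to vehicle for the 9 genes from edgeR's quasi-likelihood fit; bars are 95% intervals and dotted lines mark 1.5-fold. Every point estimate lies between -0.11 (Becn1) and 0.34 (Gabarapl1), inside the dotted lines.

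Sqstm1 encodes p62, the receptor that ties ubiquitin-tagged aggregates to ATG8 proteins and is itself degraded with them. Sqstm1 (chr11:50200152-50210820, minus strand) was at 851.7 and 1120.2 CPM in the mCDC libraries and at 824.0 and 766.9 CPM in the vehicle libraries. Both mCDC libraries were higher, but mCDC replicate 2 stood apart, and mCDC replicate 1 was close to vehicle replicate 1. The fitted log2 ratio was 0.31 (SE 0.17, adjusted p = 0.742), with an interval of the ratio from 0.941 to 1.63. Without mCDC replicate 2 it was 0.10, and without mCDC replicate 1 it was 0.49. Mrnip overlaps Sqstm1 on the opposite strand.

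Of the mitophagy genes, Bnip3 encodes a receptor of the mitochondrial outer membrane that binds ATG8 proteins directly. Bnip3 (chr7:138890836-138909506, minus strand) was at 610.3 and 629.9 CPM in the mCDC libraries and at 612.2 and 467.0 CPM in the vehicle libraries. Vehicle replicate 2 was the low library, while vehicle replicate 1 lay between the 2 mCDC libraries. With all libraries the log2 ratio was 0.20 (SE 0.16, adjusted p = 0.796), an interval of the ratio from 0.883 to 1.5. Without vehicle replicate 2 it was 0.02, and without vehicle replicate 1 it was 0.41 (unadjusted p = 0.0401, edgeR adjusted p = 0.431, in a range up to 1.0 over the alternatives). Of the 31-base words in the transcripts of Bnip3, 20.3% also occur in transcripts of other genes, mainly Gm16439, Gm6532 and Gm9419. Reads of those copies may thus have been counted with Bnip3. The share of such words was 7.77% for Map1lc3b, 7.68% for Ctsl and 2.04% for Becn1.

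Ctsl encodes cathepsin L, a cysteine protease of the lysosome that is raised in many forms of muscle atrophy. Ctsl (chr13:64361890-64370772, minus strand) was at 139.0 and 130.4 CPM in the mCDC libraries and at 115.7 and 119.5 CPM in the vehicle libraries. Both mCDC libraries were higher than both vehicle libraries. The log2 ratio was 0.20 (SE 0.13, adjusted p = 0.765), with an interval from 0.935 to 1.4, and it stayed between 0.15 and 0.24 with any 1 library left out. Macrophages also express Ctsl, and a list of 12 macrophage markers had a summed level of 73.3 and 88.1 CPM with mCDCs, against 70.8 and 106.5 CPM in the vehicle libraries. Of the 12, Cd68 was called higher and Csf1r lower, 3 had a log2 ratio above 0, and none was at 0 in all libraries. The part of macrophages in the level of Ctsl was not tested, and in whole muscle fewer cells of a type and less RNA per cell cannot be told apart.

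Tfeb encodes the transcription factor that switches on lysosomal and autophagy genes when it enters the nucleus. Tfeb (chr17:47737037-47792416, plus strand) was at 68.2 and 68.4 CPM in the mCDC libraries and at 68.7 and 68.2 CPM in the vehicle libraries. The 4 libraries were closer together than for any other of the 10 genes. Its log2 ratio was -0.0023 (SE 0.13, adjusted p = 0.999), and the interval of the ratio ran from 0.815 to 1.22, because the fitted error of a gene also draws on the spread of the other genes. Without the GC and length trend it was -0.07.

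**Figure D3:**
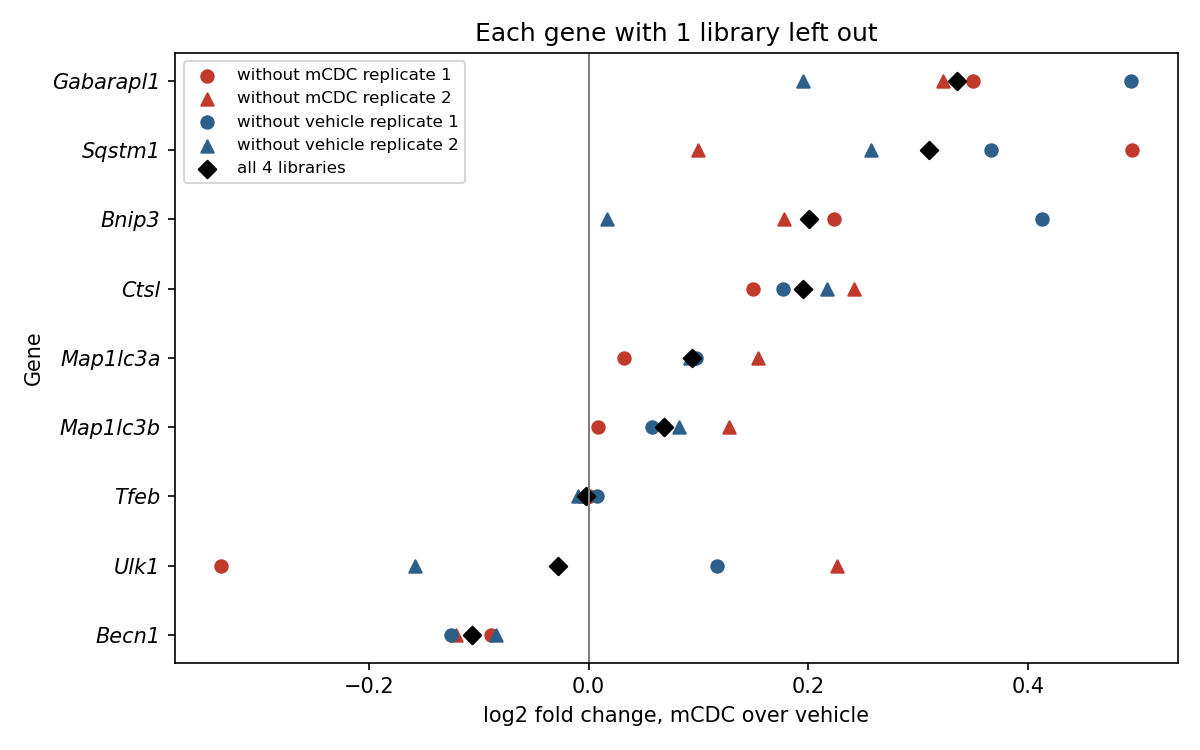
log2 ratio of mCDC to vehicle for the 9 genes with all 4 libraries (black diamonds) and with each library left out; red marks leave out an mCDC and blue marks a vehicle library. Ctsl stays between 0.15 and 0.24, while Ulk1 runs from -0.34 to 0.23 and Bnip3 from 0.02 to 0.41.

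The 10 genes had a median log2 ratio of 0.081, beside -0.0094 for all genes tested, and 6 of the 10 had a value above 0, beside 48.4% of all genes. Leaving out mCDC replicate 1 gave a median of 0.02, leaving out mCDC replicate 2 one of 0.14. Among the 9 genes, Sqstm1 and Ulk1 were those in which the 2 mCDC libraries differed most, and Bnip3 and Gabarapl1 those in which the vehicle libraries did.

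Levels were compared between genes per length, in CPM per kilobase of the longest coding transcript that GENCODE pairs with a curated RefSeq mRNA, over all 4 libraries. Sqstm1 and Bnip3 were highest, at 333.2 ± 58.7 and 330.2 ± 43.1 (SD, n = 4), and their libraries overlapped. Map1lc3a followed at 218.0 ± 11.3 (SD, n = 4), below both in every library. Gabarapl1, at 87.1 ± 13.3, and Ctsl, at 64.0 ± 5.36 (SD, n = 4), overlapped with each other. Map1lc3b had 52.2 ± 2.34, Tfeb 29.2 ± 0.104, Becn1 18.0 ± 0.814 and Ulk1 13.8 ± 2.4 (SD, n = 4), and these 4 did not overlap with their neighbours. The order depended on the length used. With the median length of all coding transcripts, Becn1 was at 108.1 and Map1lc3b at 79.9 CPM per kilobase, in the reverse order, while Sqstm1 and Bnip3 stayed highest, at 539.3 and 468.6, and Ulk1 lowest of the 9, at 16.4.

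The 3 ATG8 genes were set beside the other members of their family, Gabarap and Gabarapl2. Per kilobase of the longest transcript, Map1lc3a was the largest member in every library, at 44.2% of the family's CPM per kilobase in mCDC replicate 1 and 43.7% and 44.3% in the vehicle libraries, and lower than these in mCDC replicate 2. Map1lc3b made up between 9.73% and 10.8% in each library. The share of Gabarapl1 was 18.1% and 18.6% in mCDC muscles and 17.6% and 14.5% in vehicle muscles, so the groups did not overlap, and that of Gabarap was between 20.4% and 23.3%. These shares rest on the length used. With the median transcript length, an alternative added after seeing the data, Gabarapl1 made up 32.9% and 33.6% with mCDCs, against 32.1% and 27.3% in the vehicle libraries, and exceeded Map1lc3a, which made up between 29.2% and 32.9%, in all but vehicle replicate 2. The family summed to 528.7 ± 3.56 CPM per kilobase in the mCDC libraries and to 479.4 ± 4.8 in the vehicle libraries (SD, n = 2 each), a ratio of 1.1, which was 1.13 with the median length. The distance between the groups was larger than the spread within either, but 2 libraries against 2 allow no exact permutation p below 0.333.

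**Figure D4:**
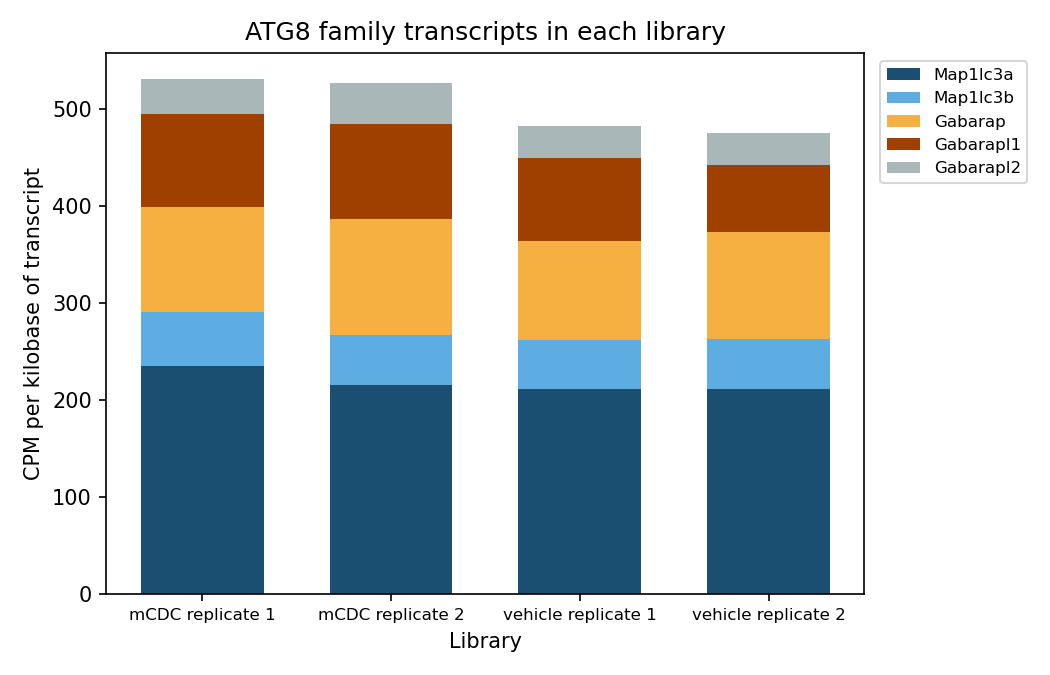
CPM per kilobase of transcript of the 5 ATG8 family genes in each library, stacked from Map1lc3a at the base to Gabarapl2 at the top. The summed level is 531.2 and 526.2 with mCDCs, against 482.8 and 476.0 in the vehicle libraries. Map1lc3a is the largest part in each with the longest transcript used here, and in vehicle replicate 2 alone with the median length.

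Beside its relative Bnip3l, Bnip3 made up 95.6% and 96.0% of the pair's CPM per kilobase with mCDCs, against 95.4% and 94.2% in the vehicle libraries. Pink1, a kinase that marks damaged mitochondria, was the most abundant mitophagy gene of the wider lists, at 721.9 CPM per kilobase. Sqstm1 made up between 91.6% and 94.4% of its sum with Nbr1, another cargo receptor. Ulk1 and Ulk2 were at similar levels, with Ulk1 taking 56.0% and 52.9% of their sum in mCDC muscles and 46.9% and 50.7% in vehicle muscles. Tfeb took between 75.5% and 78.5% of its sum with Tfe3 and Mitf, the related factors, and between 89.3% and 90.5% with the median length.

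Ctsl was set beside 8 other lysosomal cathepsins. It made up 14.0% and 12.8% of the group's CPM per kilobase in mCDC muscles and 13.6% and 13.8% in vehicle muscles, so its own share did not separate the groups. The group summed to 510.1 ± 11.4 CPM per kilobase in the mCDC libraries and to 435.5 ± 7.01 in the vehicle libraries (SD, n = 2 each), a ratio of 1.17. Cathepsin D, encoded by Ctsd, made up between 52.3% and 57.8% of it. With the median length the ratio was 1.15, Ctsl made up between 20.8% and 22.4% and Ctsd between 36.4% and 41.9%.

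The 10 genes were read against 131 other genes of the pathway, in 9 lists by step. 0 of the 131 were called higher and 5 were called lower in mCDC muscles, beside 1.26% and 2.74% of all genes. This split depended on the library and the setting. Without the GC and length trend 2 of the 131 were called higher and 4 lower, beside 215 and 286 of the 13652 genes tested. With 1 library left out the calls also changed. The median log2 ratio of the 131 then ran from -0.0773 without vehicle replicate 2 to 0.1057 without vehicle replicate 1. In the main fit with all 4 libraries 13 of the 131 had an unadjusted p under 0.05, beside 6.94% of all genes. The smallest adjusted p was 0.462. Their median log2 ratio was -0.0004, with 65 of 131 above 0, and the groups did not overlap for 37.4% of them, beside 38.7% of all genes. In all, 67.2% of the 131 genes had an interval of the ratio inside 1.5-fold in both directions, as did 40.7% of all genes. These shares depend on the width of the intervals as well as on the ratios. The median standard error over all genes tested was 0.199.

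**Figure D5:**
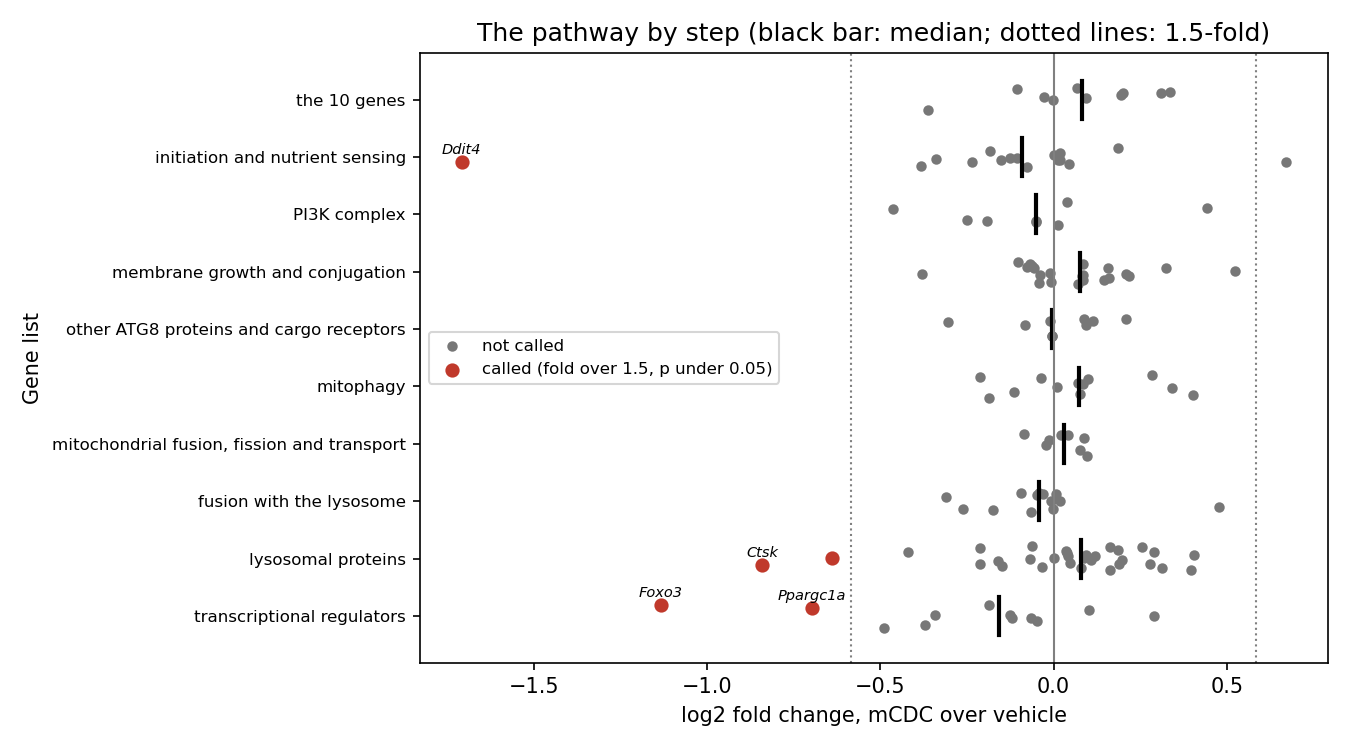
log2 ratio of mCDC to vehicle for the 10 genes and the 9 wider lists; each point is a gene, black bars are medians, dotted lines mark 1.5-fold and red points are called genes. The 5 called genes, 4 of them labelled (Ddit4, Foxo3, Ctsk and Ppargc1a), are all lower in mCDC muscles, and the list medians lie between -0.16 and 0.081.

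4 of the 5 called genes are described here, namely 1 inhibitor of mTORC1 signalling, 2 transcriptional regulators and 1 lysosomal protease. Ddit4 (REDD1), which restrains mTORC1 under stress, had 6.32 and 6.08 CPM with mCDCs, against 27.8 and 12.8 CPM in the vehicle libraries, a log2 ratio of -1.71 (SE 0.34, adjusted p = 0.462). It was -1.04 without vehicle replicate 1, and its adjusted p was 0.000559 with DESeq2, the lowest of a range up to 0.774 over the alternatives. Foxo3, a forkhead factor that drives atrophy and autophagy genes in muscle, had 3.94, 3.33, 11.5 and 4.51 CPM in the same order. Vehicle replicate 1 was the high library, and the log2 ratio of -1.13 (SE 0.41, adjusted p = 0.695) was -0.30 and not called without it. Ppargc1a (PGC-1alpha), a coactivator of mitochondrial genes, had 35.7, 29.6, 60.3 and 45.6 CPM, a log2 ratio of -0.70 (SE 0.18, adjusted p = 0.612), and fell short of 1.5-fold without vehicle replicate 1 (-0.48), without mCDC replicate 2 (-0.57) and without the GC and length trend (-0.49).

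Ctsk encodes cathepsin K, a collagen-degrading protease, and had 4.81, 5.25, 6.68 and 11.3 CPM in the order used above. Its log2 ratio was -0.84 (SE 0.28, adjusted p = 0.673) and -0.41, not called, without vehicle replicate 2. Vehicle replicate 2 was the high library. That library also had the highest summed level of 8 fibroblast markers, 694.7 CPM against 379.6 to 430.7 CPM in the other libraries. Of these 8, 3 (Pdgfra, Col1a2 and Lum) were called lower in mCDC muscles, beside 2.74% of all genes. 0 of the 8 had a log2 ratio above 0, and their median was -0.5. The part of fibroblasts in the level of Ctsk was not tested.

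By step, the 16 genes of initiation and nutrient sensing had a median log2 ratio of -0.091, with Ddit4 the only one called. Sesn2, a stress-induced restraint on mTORC1 named after its values were seen, had 5.49 and 9.96 CPM with mCDCs, against 4.88 and 4.77 CPM in the vehicle libraries. Its ratio of 1.59-fold (unadjusted p = 0.0539 in edgeR) rested on mCDC replicate 2, without which it was 1.14-fold. Atg13, a subunit of the ULK1 complex, was at 0.02 and had the highest mean per length, 22.9 CPM per kilobase, nearly the same as Tsc2 at 22.6, and the order changed with the median transcript length. Of the 8 PI3K complex genes, median -0.051, none was called, and 1 was higher and 3 lower without overlap. Nrbf2, a subunit of that complex, had the smallest p, with 28.4 and 27.4 CPM in the mCDC libraries, at most 21.0 CPM in the vehicle libraries and a log2 ratio of 0.44 (SE 0.15, adjusted p = 0.673). The 22 genes of membrane growth and conjugation had a median of 0.076, 6 of them higher and 1 lower without overlap, beside 19.2% and 19.4% of all genes. The smallest p was that of Tmem41b, a lipid scramblase of the endoplasmic reticulum, at 0.52 (SE 0.18, adjusted p = 0.685) and at 0.33 without mCDC replicate 2, and Wipi1 was the most abundant, at 0.16.

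The 9 other ATG8 and receptor genes had a median of -0.0047, with Gabarap at 0.09 and Wdfy3, a scaffold for aggregate removal, at -0.30. Gabarap had the highest mean per length, 110.5 CPM per kilobase, close to Fam134b, a receptor for the endoplasmic reticulum, at 106.5, and Fam134b was higher in mCDC replicate 1, in vehicle replicate 1 and with the median transcript length. The 12 mitophagy genes had a median of 0.073 and none was called. Pgam5, a phosphatase of the outer membrane, had a log2 ratio of 0.40 (SE 0.15, adjusted p = 0.705), while Pink1 was at -0.04 with an interval from -0.39 to 0.32. The 8 fusion, fission and transport genes stayed between -0.09 and 0.10, with Rhot2 at 0.09 and Mfn2, mitofusin 2, at 0.04.

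The 13 genes of fusion with the lysosome had a median of -0.043, with 3 above 0 and with 1 higher and 3 lower without overlap. Rab7, the small GTPase of late endosomes, had the smallest p, with 68.1 and 64.6 CPM in the mCDC libraries, 56.5 and 38.9 CPM in the vehicle libraries and a log2 ratio of 0.48 (SE 0.19, adjusted p = 0.713). It was called only without vehicle replicate 1, at 0.77, and was 0.23 without vehicle replicate 2. The 31 lysosomal genes had a median of 0.078, with 21 above 0, beside 48.4% of all genes, and 11 higher and 3 lower without overlap, beside 19.2% and 19.4% of all genes. Lamp1, a membrane glycoprotein of the lysosome, was at 0.05 and had the highest mean over the 4 libraries, at 269.1 CPM per kilobase against 264.6 for Ctsd, but Ctsd was higher in both mCDC libraries and with the median transcript length. Vehicle replicate 2 was the lowest library for 17 of the 31, and the median was 0.02 without it, with 17 above 0. The 12 transcriptional regulators had the lowest median, -0.16, with 2 above 0, beside 48.4% of all genes, and 1 higher and 5 lower without overlap. Foxo4 was the most abundant of the 12, at -0.05. The median of the 12 was -0.34 without mCDC replicate 1 and -0.07 without vehicle replicate 1. Leaving out vehicle replicate 1 also moved the median of the initiation list above 0, to 0.04, and leaving out vehicle replicate 2 moved that of the mitophagy list below 0, to -0.04, and that of the fusion, fission and transport list, to -0.11. That of the other ATG8 and receptor genes ran from -0.12 without vehicle replicate 2 to 0.15 without vehicle replicate 1.

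The 4 libraries held between 22481391 and 27187425 expected counts. Over all genes, 172 were called higher and 374 lower, 215 and 286 without the GC and length trend, and 0 had an adjusted p under 0.05 with the quasi-likelihood test, where 947 had an unadjusted p under 0.05. With DESeq2 48 and with the likelihood ratio test 66 genes had an adjusted p under 0.05. The labelled tissue was borne out by its markers, with 8 slow fibre genes such as Myh7 summing to between 80833 and 98587 CPM and 8 fast fibre genes to between 30474 and 37961 CPM. Vehicle replicate 2 stood apart in other cell types as well, with 6 endothelial markers at 244.6 CPM against 110.4 to 140.6 and 6 erythroid markers at 454.8 CPM against 244.5 to 279.7 in the other libraries, while 6 adipocyte markers were lowest there, at 18.1 CPM, and highest in vehicle replicate 1, at 63.5 CPM. mCDC replicate 2 lay farthest out at 1 end (-33.05) of the leading axis of a principal component analysis (44.0% of variance). Vehicle replicate 2 lay at the other end (29.85), with mCDC replicate 1 (-2.88) and vehicle replicate 1 (6.08) between them. Over the genes tested mCDC replicate 1 correlated with vehicle replicate 1 at 0.9867 and with mCDC replicate 2 at 0.9855. The library with the highest Sqstm1 was mCDC replicate 2. In vehicle replicate 2, Bnip3, Gabarapl1 and Sqstm1 were at their lowest, and the part of other cell types in their values was not tested.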

How the data were processed

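Total RNA from soleus was sequenced from 1 end. The authors aligned the reads with Bowtie 2 to UCSC transcripts and deposited RSEM expected counts per gene, not normalized (Bowtie 2 version 2.1.0, RSEM 1.2.15 and build mm10 in the submitters' processing notes). The labels name a stranded mRNA kit and the methods another kit, and whether strand was used in counting is not given in the sources used here. Expected counts were rounded and tested in R 4.3.3 with edgeR 4.0.16 on all genes: filterByExpr, TMM scaling and the quasi-likelihood F-test (legacy = FALSE), 2 mCDC against 2 vehicle libraries, without covariates. Library totals ran from 22481391 to 27187425. The size of each log2 ratio over the root of its F statistic gave the standard error, and 95% intervals use the t distribution with the fit's degrees of freedom. p-values are two-sided.

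Genes were chosen as the 10 members, all called genes of the 9 wider lists, and each list's gene with the smallest p and with the highest CPM per kilobase. A few others are named as relatives of a member or for a close level, chosen after their values were seen. The members and lists were chosen with earlier results of these data known. Of the table's symbols, 22542 matched a RefSeq GRCm38.p6 gene by current and 1334 by older symbol, and lengths came from GENCODE M21. Alternatives were DESeq2 1.42.0, the legacy and likelihood ratio tests, RLE scaling, no filter or a minimum of 10 counts in every library, unrounded counts, a replicate block, a smooth of GC and length taken out (mgcv 1.9.3) and leaving out each library. The procedure was tested on simulated data. 1 of the 10 genes and 1 called gene of the wider lists are not reported here.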

Additional observations from a re-analysis of the deposited data

How the results depend on the processing

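With 13 alternatives, 0 of the 10 genes were called under any of them, and the cause of the changes below was not tested. With each library left out in turn, the number of genes called over the whole table ran from 348 (without mCDC replicate 2) to 1107 (without vehicle replicate 1), with 941 without mCDC replicate 1 (546 with all libraries), the median log2 ratio of the 10 genes from 0.0205 to 0.1413 (0.081), the number of called genes on the 9 wider lists from 3 to 8 (5), and their median from -0.0773 to 0.1057 (-0.0004). Under the other alternatives these counts stayed within 1.5 times the main count and the medians moved by less than the spread between replicates. No direction of a called gene turned; among the 28 named genes, the call of 6 changed under at least 1 alternative. Tmem41b was called without the GC and length trend (log2 ratio 0.64), without mCDC replicate 1 (0.70) and without vehicle replicate 1 (0.66), and was 0.33 without mCDC replicate 2 and 0.40 without vehicle replicate 2. The signs of Ulk1, Becn1 and Tfeb changed under some alternatives, each with an interval that spans 0, and so did those of Atg13, Pink1, Mfn2, Lamp1 and Foxo4. Where 1 library was left out, the lone library of its group was assumed to vary like the 2 of the other group. The level per kilobase of 9 of the 10 genes moved with the median transcript length.

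The replicate numbers of the 2 groups are not known to pair animals, and the differences between replicates 1 and 2 correlated at -0.039 between the groups over genes. With the replicate number as a block, 480 genes were called, the median of the 10 genes was 0.080, 0 of them were called, and 4 genes of the wider lists were. With 2 libraries a group, the intervals of 3 of the 10 genes, among them Gabarapl1 and Sqstm1, reach past 1.5-fold.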

Other observations

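10 subunits and accessory proteins of the vacuolar ATPase, the pump that acidifies the lysosome, were part of the lysosomal list, and this subset was picked out after its values were seen. 9 of the 10 had a log2 ratio above 0, 6 were higher and 0 lower without overlap of the groups, and none was called. Their median was 0.17, with a range from -0.21 to 0.41. Vehicle replicate 2, the library with the highest fibroblast, endothelial and erythroid marker sums, was the lowest library for 9 of the 10. Without it the median was 0.06, with 7 of the 10 above 0, and without vehicle replicate 1 it was 0.34. Without mCDC replicate 2 the median was 0.17, with 6 of the 10 above 0. The part of cell types in these values was not tested. All genes tested had a median of -0.0094, with 19.2% higher and 19.4% lower without overlap.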
